A study of Homo sapiens with 4 samples.

Results

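The genes described here were 10 genes of retinoic acid signalling: the retinoic acid receptors RARA, RARB and RARG, the retinoid X receptors RXRA and RXRB, the binding proteins CRABP1 and CRABP2, and the responsive genes CYP26A1, DHRS3 and TENT5A (FAM46A in older annotation). They were listed by name from this pathway and were 10 of the 57820 genes counted. All 10 passed the filter for low values, which 15136 genes passed. The libraries were made from HAP1 cells, a nearly haploid human line of leukaemic origin, and all were untreated, so that no retinoic acid had been added. In the dKO group (2 libraries) RING1A and RING1B had been inactivated, and in the tKO group (2 libraries) RING1A, RING1B and BAP1. RING1A and RING1B are the catalytic subunits of the Polycomb complex PRC1, which ubiquitinates histone H2A, and BAP1 removes that ubiquitin. Both groups therefore lacked PRC1 activity, and cells with PRC1 were not analysed here. BAP1 and RING1A had been disrupted by a STOP cassette in picked clones, whereas the study bought its line without RING1B from a supplier, and how many clones stood behind each group was not given. The comparison of tKO with dKO asked whether loss of BAP1 altered expression where PRC1 was missing.

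Retinoic acid is made from retinol through retinaldehyde and enters the nucleus, where RAR bound to RXR reads it out on DNA. Without the ligand the pair holds corepressors, and with it coactivators. The signal limits itself, because it induces CYP26A1, which degrades retinoic acid, and DHRS3, which turns retinaldehyde back into retinol. RARB is itself a target. CRABP2 delivers retinoic acid to the receptors, and CRABP1 is linked to its breakdown. TENT5A is a non-canonical poly(A) polymerase.

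RAR-RXR pairs bind direct repeats of a hexamer, classically spaced by 5 bases. The 1000 bases before the start of the canonical transcript (GENCODE 44 on GRCh37) were searched on both strands for 2 copies of AGGTCA or AGTTCA or GGGTCA or GGTTCA, in any combination and in the same direction, 1, 2 or 5 bases apart. Repeats 5 bases apart were found for CYP26A1 and RARB, 2 of the 10 genes, and in 0.272% of 19853 such windows of protein-coding genes. A repeat 1 base apart was found for CRABP2 (0.539% of windows), and repeats 2 bases apart for 0 of the 10 genes (2.37% of windows). They are shown because CYP26A1 and RARB carry the same class of element and yet had unlike values, given below. Capitals mark the hexamers.
RARB, chr3:25469701-25469717, plus strand, 37 to 53 bases before the start: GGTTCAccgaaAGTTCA
CYP26A1, chr10:94833560-94833576, minus strand (opposite to the gene), 74 to 90 bases before the start: AGTTCAcccaaAGTTCA
CRABP2, chr1:156675820-156675832, minus strand (that of the gene), 445 to 457 bases before the start: AGTTCAgGGTTCA
The RARB and CYP26A1 elements also fall inside exons of other annotated transcripts that start further upstream. A match describes the letters only, and receptor binding was not measured here.

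Between 16054590 and 18455410 reads per library fell in genes, and values are given as CPM, the count of a gene scaled to this total. A count of 3 equals 0.163 to 0.187 CPM. The targeted gene BAP1 had 2046 and 2010 counts in dKO against 158 and 107 in tKO. Transcripts of RNF2, the gene of RING1B, were still counted 1421 and 1561 times in dKO and 1262 and 1102 times in tKO, so that its RNA does not check the inactivation, and RING1 had between 12 and 17 counts in each library. Of 9 markers of blood cells, 0 passed the filter, and PTPRC and MPO had between 0 and 1 count per library. Of 7 matched markers of other lineages COL1A1 alone passed the filter, at 10.5 to 12.9 CPM. VIM and FN1, which HAP1 expresses as an adherent line, were present in all libraries. In tKO 2 the short arm of chromosome 3 from CHL1 to ARHGEF3 (238446 to 57113357) was low, and RARB lies in it. The log2 ratios of its 304 genes above 2 CPM to the dKO mean had a median of -0.93. In tKO 1 the short arm of chromosome 10 was low (median -0.97 over 116 genes), and none of the 10 genes lies there. The marker VIM does, with 263.3 CPM in tKO 1 against 514.5 and 478.7 CPM in dKO.

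The level of each gene was compared per kilobase of its canonical transcript. RARG was the highest (mean 11.9 CPM per kb, range 9.36 to 13.7), followed by CRABP2 (8.45, range 3.90 to 11.1) and RXRA (7.61, range 7.01 to 8.45). The ranges of these 3 overlapped, and that of RXRA lay above the next gene, DHRS3 (5.16), in all libraries. RARA (4.36), TENT5A (3.84), CRABP1 (3.09), RXRB (2.89) and CYP26A1 (2.86) followed, each overlapping its neighbours in the order. RARB was the lowest at 0.175 CPM per kb (range 0.0398 to 0.292), below CYP26A1 in every library. With the union of all annotated exons as the length, CRABP2 came before RARG and TENT5A moved to the third place, while RARB stayed last. Lengths came from GENCODE 44, whereas reads were counted over exons of GENCODE 19. Exons absent from the older release add length but no reads.

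**Figure D1:**
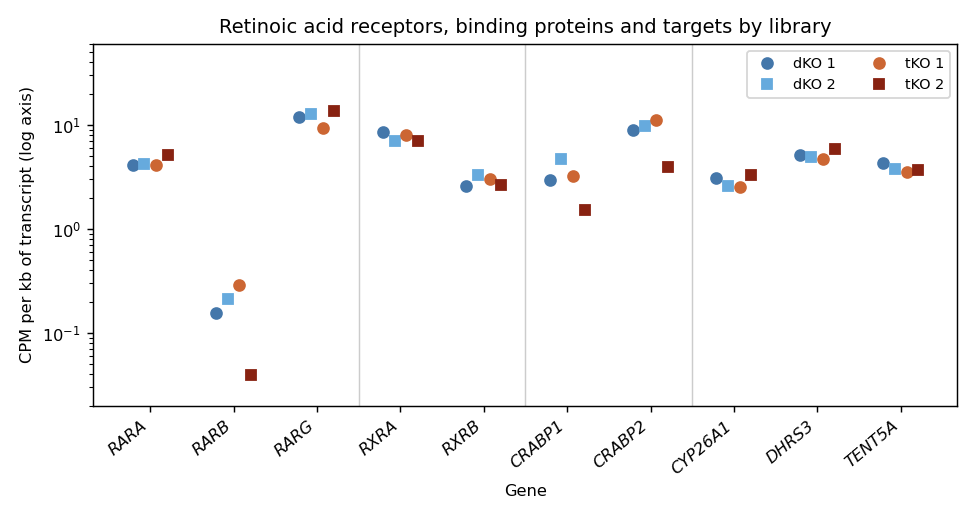
Level of the 10 genes in CPM per kb of canonical transcript on a log axis, with 1 point per library (blue dKO, red tKO, circles library 1, squares library 2). RARB is the lowest gene in every library, and RARB, CRABP1 and CRABP2 have their lowest point in tKO 2.

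None of the 10 genes was called in the comparison of tKO with dKO. In limma 0 of them passed an adjusted p-value of 0.05 with an absolute log2 fold change above 1 (0.0132% of all tested genes did), and at an unadjusted p-value under 0.05 the number was also 0 (3.55% of all tested genes). An absolute log2 fold change above 1, without regard to the test, was likewise found for 0 of the 10 (1.78% of all tested genes). The edgeR quasi-likelihood test and DESeq2 also called 0 of the 10 (1 and 25 of all 15136 tested genes). At an unadjusted p-value below 0.05 each gave 0 of the 10 (3.50% and 2.12% of all tested genes). The smallest adjusted p-value was 0.996 in limma. The median log2 fold change of the 10 genes was -0.08, against -0.00 for all tested genes. In 9 of the 10 genes the values of the genotypes overlapped. TENT5A was the exception, with both tKO values below both dKO values, which held for 16.3% of all tested genes (both above for 15.1%). For 7 genes the 95% interval of the log2 fold change lay inside 2-fold either way. For RARB, CRABP1 and CRABP2 a 2-fold fall lay within the interval, and a 2-fold rise lay within that of RARB alone.

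**Figure D2:**
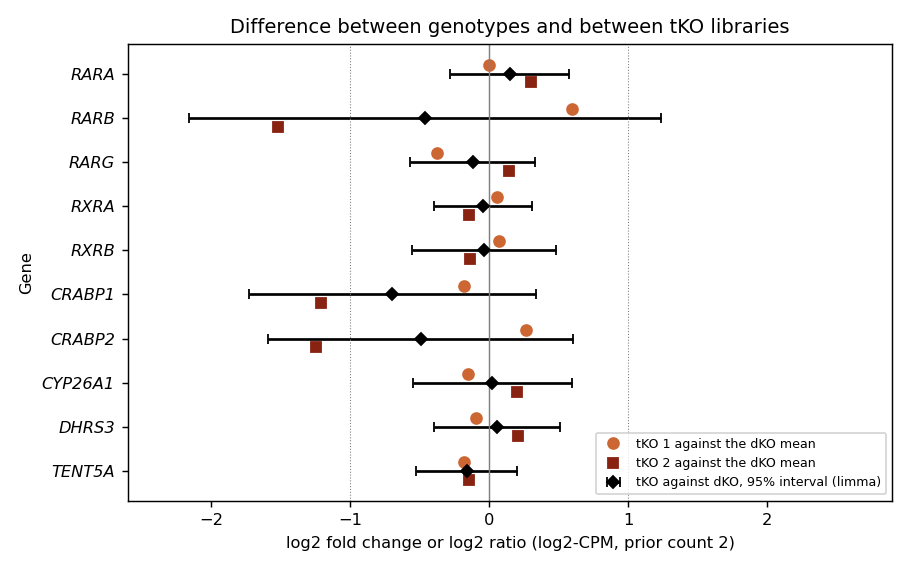
log2 fold change of tKO against dKO with its 95% interval from limma (black diamonds), and the log2 ratio of each tKO library to the dKO mean (orange circles tKO 1, dark red squares tKO 2), with dotted lines at 2-fold. The intervals of RARB, CRABP1 and CRABP2 reach past 2-fold, and for these genes tKO 2 lies below -1.2.

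Among the ligand-binding receptors, RARG (ENSG00000172819.12, GRCh37 chromosome 12, 53604351 to 53626764, minus strand), the receptor most tied to epithelia and skeleton, had 34.5 and 37.5 CPM in dKO and 27.3 and 39.9 CPM in tKO 1 and tKO 2. The tKO values stood on either side of the dKO values, with a log2 fold change of -0.12 (95% interval -0.57 to 0.33). RARA (ENSG00000131759.13, chromosome 17, 38465432 to 38513895), the most widely expressed of the 3 receptors, had 13.4 and 13.7 CPM in dKO and 13.3 and 16.8 CPM in tKO. Its dKO libraries were 1.02-fold apart and the tKO libraries 1.26-fold, with a log2 fold change of 0.15 (interval -0.28 to 0.57). Per kilobase, RARG made up between 68.2% and 74.5% of the RAR transcripts of a library and RARA between 24.2% and 29.7%. RARG was thus the most abundant RAR transcript in each of the 4 libraries.

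RARB (ENSG00000077092.14, chromosome 3, 24729378 to 25639423, plus strand), the receptor that is also a retinoic acid target, was counted 9 and 12 times in dKO, 15 times in tKO 1 and 2 times in tKO 2. In CPM these were 0.488, 0.667, 0.914 and 0.125, and tKO 2 lay under the level of 3 counts. The exact Poisson 95% intervals, which cover counting error only, were 0.223 to 0.926 CPM in dKO 1, 0.512 to 1.51 CPM in tKO 1 and 0.0151 to 0.450 CPM in tKO 2. The interval of tKO 2 met that of both dKO libraries but not that of tKO 1. The tKO libraries thus stood above and below both dKO libraries, and the log2 fold change was -0.46 with a 95% interval of -2.16 to 1.24. Without tKO 2 it was 0.60 (adjusted p = 0.826 in limma). The edgeR quasi-likelihood test and DESeq2 gave a smaller difference, of -0.134 and -0.136.

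RARB lies in the stretch of chromosome 3 that was low in tKO 2. Within 5 Mb, 18 tested genes above 2 CPM had a median log2 ratio to dKO of -0.98 in tKO 2 and -0.01 in tKO 1. RARB itself stood at -1.52 and 0.60, so that 0 of the 18 were lower than RARB in tKO 2 and 18 were lower in tKO 1. Of the closest tested genes, RPL15, a ribosomal protein, had 309 CPM in tKO 2 against 547 and 653 CPM in dKO and 663 CPM in tKO 1. The thyroid hormone receptor THRB had 22.2 CPM in tKO 2 against 40.8 and 39.5 CPM in dKO, and the clock receptor NR1D2 32.6 CPM against 73.7 and 86.1 CPM. TOP2B, a DNA topoisomerase that lies just beyond the end of RARB, had 247 CPM in tKO 2 against 468 and 485 CPM in dKO. NGLY1 and OXSM had log2 ratios of -0.91 and -0.90 in tKO 2. The sparsely counted THRB-AS1 and NEK10 had log2 ratios of -2.35 and -1.10. All 8 of these neighbours were lower in tKO 2 than in either dKO library. How far the value of RARB follows that of the stretch was not tested.

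Reads on the other strand set RARB apart from the remaining genes. There were 7 in each dKO library, 13 in tKO 1 and 4 in tKO 2, or 44.9% of the 69 stranded reads in the gene. In the other 9 genes the share lay between 0% and 0.383%, with a median of 0.231% over all tested genes. A share as high as that of RARB was held by 3.34% of tested genes. Genes annotated on the minus strand inside RARB had 0 counts in all libraries. Outside it, TOP2B lies just beyond its end and had between 3970 and 8717 counts per library. Where the other-strand reads came from was not tested. The other-strand reads were highest in tKO 1 and lowest in tKO 2, as were the reads assigned to RARB.

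The retinoid X receptors are the shared partners of RAR and of several other nuclear receptors. RXRA (ENSG00000186350.8, chromosome 9, 137208944 to 137332431) had 46.8 and 39.1 CPM in dKO and 43.9 and 38.8 CPM in tKO, with a log2 fold change of -0.05 (interval -0.40 to 0.31). RXRB (ENSG00000204231.6, chromosome 6, 33161365 to 33168442) had 7.42 and 9.50 CPM in dKO and 8.71 and 7.66 CPM in tKO, with a log2 fold change of -0.04 (interval -0.55 to 0.48). Both tKO values of RXRB lay between the dKO values. RXRB lies on the minus strand, and the side of its start faces RING1, 7834 bases away. RING1, the gene of RING1A, was targeted in both groups. RXRG, the third family member, had between 0 and 5 counts per library. Per kilobase RXRA made up between 68.0% and 76.7% of the RXR transcripts.

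The binding proteins differed more between the tKO libraries than between the genotypes. CRABP2 (ENSG00000143320.4, on the minus strand of chromosome 1, 156669398 to 156675608) had 161 and 172 counts in dKO, 178 in tKO 1 and 61 in tKO 2, or 8.72, 9.56, 10.8 and 3.80 CPM. The value of tKO 2 was 41.6% of the dKO mean, while that of tKO 1 was 119%. The Poisson interval of tKO 2 (2.91 to 4.88 CPM) did not reach those of the other libraries, the lowest of which began at 7.43 CPM. CRABP1 (ENSG00000166426.7, chromosome 15, 78632695 to 78640567) had 40 and 62 counts in dKO, 39 in tKO 1 and 18 in tKO 2, or 2.17, 3.45, 2.38 and 1.121 CPM. Here tKO 2 was 39.9% of the dKO mean, but its interval (0.665 to 1.77 CPM) met those of dKO 1 (1.55 to 2.95 CPM) and tKO 1. The log2 fold changes of the genotype were -0.49 (interval -1.59 to 0.60) for CRABP2 and -0.70 (interval -1.73 to 0.34) for CRABP1. The summed CRABP level was 11.9 and 14.5 CPM per kb in dKO, 14.3 in tKO 1 and 5.42 in tKO 2.

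The surroundings of the CRABP genes were not low in tKO 2. Within 5 Mb of CRABP2, 119 genes had a median log2 ratio of -0.00 in tKO 2, where CRABP2 stood at -1.25 and 2 of the 119 were lower. Within 5 Mb of CRABP1, 83 genes had a median of 0.03, where CRABP1 stood at -1.21 and 2 were lower. RARB, CRABP1 and CRABP2 were over 2-fold lower in tKO 2 than in tKO 1. This was 3 of 10 genes, RARB lying in the low stretch of chromosome 3, against 3.40% of all tested genes. CRABP1 passed narrowly, with a log2 difference of -1.03. The 10 genes were chosen with earlier results of these data known, so these numbers do not form a test. Among tested genes with a mean of 1 to 10 CPM the share over 2-fold lower in tKO 2 was 5.84%. That class holds CRABP1 and CRABP2 but not RARB (mean 0.548 CPM). Over 2-fold apart in either direction were the same 3 genes, against 6.04% of all tested genes. Between the dKO libraries 0 of the 10 genes were over 2-fold apart (1.50% of all genes). With tKO 1 left out, so that tKO 2 was set against dKO, CRABP1 and CRABP2 were called, with limma adjusted p-values of 0.0244 and 8.31e-05, and log2 fold changes of -1.21 and -1.25. That fit called 3.21% of all genes and tested 9 of the 10, RARB failing the filter. It assumes that tKO 2 varies as the dKO libraries do, and it compares a library rather than a genotype. With tKO 2 left out 0 of the 10 were called in limma (1.17% of all genes were) and 1, RARG at a log2 fold change of -0.38, had an unadjusted p-value below 0.05 (10.6% of all genes). The log2 fold changes in that fit were -0.18 for CRABP1 and 0.26 for CRABP2. In such bulk RNA fewer cells that express a gene and less RNA per cell cannot be told apart.

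**Figure D3:**
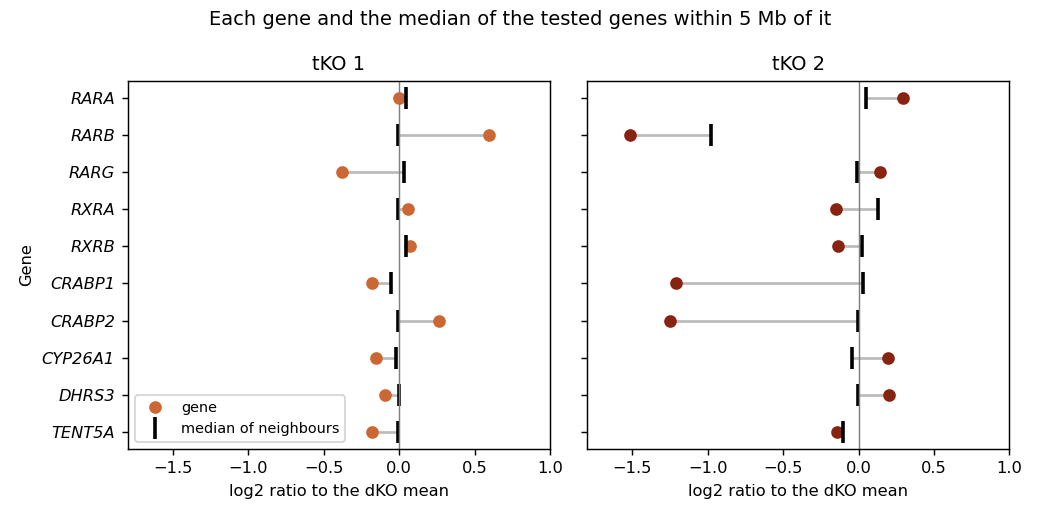
log2 ratio to the dKO mean of each gene (points) and the median of the tested genes above 2 CPM within 5 Mb of it (black ticks), in tKO 1 and tKO 2. In tKO 2 the neighbours of RARB stand at -0.98, whereas those of CRABP1 and CRABP2 stand near 0 while both genes lie below -1.2.

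The responsive genes CYP26A1, DHRS3 and TENT5A were transcribed in these untreated cells. Their tKO 2 values stood between 90.9% and 116% of the dKO mean. Other responsive genes went both ways in that library. RARB, STRA6 and NEDD9 (the last 2 described below) had their lowest values in tKO 2, whereas MEIS2 had its highest there. CYP26A1 (ENSG00000095596.7, chromosome 10, 94833232 to 94837642, on the long arm) had 120 and 99 counts in dKO, 87 in tKO 1 and 111 in tKO 2, or 6.50, 5.50, 5.30 and 6.91 CPM. The tKO values lay just outside the dKO values on both sides, and the log2 fold change was 0.02 (interval -0.55 to 0.59). DHRS3 (ENSG00000162496.4, chromosome 1, 12627939 to 12678216) had 11.4 and 10.8 CPM in dKO and 10.3 and 12.9 CPM in tKO, with a log2 fold change of 0.06 (interval -0.40 to 0.51). In both genes tKO 1 was the lowest and tKO 2 the highest of the 4 libraries. TENT5A (ENSG00000112773.11, chromosome 6, 82201156 to 82462491) had 24.2 and 21.1 CPM in dKO and 19.7 and 20.6 CPM in tKO. Its log2 fold change of -0.16 (interval -0.52 to 0.20) corresponds to 86.8% and 90.9% of the dKO mean in tKO 1 and tKO 2, and the gap between the groups was smaller than the gap between the dKO libraries. CYP26A1 and RARB hold the same class of element before their start. Their levels differed by 16-fold per kilobase of canonical transcript (35-fold per kilobase of all annotated exons). Both lengths came from GENCODE 44, whereas reads were counted over exons of GENCODE 19, so the size of this difference is approximate. CYP26A1 and RARB also differed in the direction of tKO 2, where RARB had 2 counts. RARB lies in the low stretch of chromosome 3, and CYP26A1 does not. Whether these differences relate to the element was not tested.

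The other genes of the pathway were taken from 8 lists with 83 genes, of which 64 were tested. In limma 0 of the 64 were called (0.0132% of all genes), and at an unadjusted p-value under 0.05 there were 3 (3.55% of all genes). The edgeR quasi-likelihood test called 0 (1 of all genes), with 3 at an unadjusted p-value below 0.05 (3.50% of all genes). DESeq2 called 0 (25 of all genes), with 1 at that p-value (2.12% of all genes). The log2 fold change was above 0 for 25 and below 0 for 39 genes, with a median of -0.05 against -0.00 for all genes. The 3 genes in limma were ALDH1A2, PPARG and NR2F1, all lower in tKO, each with an adjusted p-value of 0.996.

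Of the genes for uptake and storage of retinol 5 of 11 were tested. RETSAT, a retinol saturase, had a mean of 39.1 CPM and a log2 fold change of -0.06. STRA6, the membrane receptor that takes up retinol and a known target of retinoic acid, had 167 and 140 counts in dKO, 209 in tKO 1 and 24 in tKO 2. In tKO 2 it was at 1.49 CPM, against 9.05 and 7.78 CPM in dKO and 12.7 CPM in tKO 1, while its 83 neighbours within 5 Mb had a median log2 ratio of 0.01 in that library. Its genotype log2 fold change of -0.90 was close to its standard error of 0.86, and the edgeR quasi-likelihood test and DESeq2 both gave -0.228. STRA6 was highest in tKO 1 and lowest in tKO 2, an order that other listed genes also had, among them RARB, CRABP2, NR2F2 and NEDD9. The share of all tested genes with this order was not counted.

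Of the genes for synthesis 8 of 13 were tested. RDH11, a retinaldehyde reductase, had a mean of 92.5 CPM and a log2 fold change of 0.02. ALDH1A3, which makes retinoic acid from retinaldehyde, had 39.7 and 46.1 CPM in dKO and 31.1 and 45.1 CPM in tKO, with a log2 fold change of -0.19. ALDH1A2, which catalyses the same step, had 60 and 56 counts in dKO and 29 and 18 in tKO, or 3.25 and 3.11 CPM against 1.77 and 1.121 CPM. Both tKO values were below both dKO values, and the log2 fold change was -1.11 (standard error 0.33, unadjusted p = 0.0128 in limma, adjusted p = 0.996). For the breakdown of retinoic acid CYP26B1, a paralogue of CYP26A1, had a mean of 57.6 CPM and a log2 fold change of -0.11. CYP2S1, another P450, had 4.93 and 4.78 CPM in dKO and 4.26 and 1.81 CPM in tKO, with a log2 fold change of -0.77.

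Corepressors bind the receptors without ligand and coactivators with it. The 8 corepressors had log2 fold changes between -0.26 and 0.18. Among them NCOR1 (mean 241 CPM), which docks on unliganded RAR, stood at 0.03, TBL1X (167 CPM), of the same complex, at 0.08, and NRIP1 (28.2 CPM), a ligand-dependent corepressor, at -0.26. The 9 coactivators ranged from -0.55 to 0.23, with PRMT1, an arginine methyltransferase, at -0.04 and the acetyltransferase EP300 at 0.08. The acetyltransferase KAT2B had the lowest value of the list, with 31.3 and 31.8 CPM in dKO, 30.9 CPM in tKO 1 and 14.9 CPM in tKO 2, and it lies in the low stretch of chromosome 3.

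Of the other partners of RXR 10 of 12 were tested. THRA and PPARA had log2 fold changes of -0.04 and -0.19. PPARG, the receptor of fat cell differentiation, had 29.2 and 28.9 CPM in dKO and 24.7 and 16.8 CPM in tKO (log2 fold change -0.51, unadjusted p = 0.0458 in limma). THRB (log2 fold change -0.50), PPARG and the orphan receptor NR2C2 (-0.32) lie with RARB and KAT2B in the chromosome 3 stretch. In tKO 2 their log2 ratios to dKO were -0.86 for THRB, -0.79 for PPARG, -0.74 for NR2C2 and -1.09 for KAT2B, near the median of the stretch, while in tKO 1 they lay between -0.22 and 0.09. The 6 orphan receptors that compete for the same elements all had negative log2 fold changes, with a median of -0.08 (-0.00 over all tested genes). In size, those of NR2F2, NR2F6, NR2C1 and NR6A1 were below their standard errors. NR2F1 was the lowest at -0.39 (unadjusted p = 0.041 in limma), with 41.1 and 42.1 CPM in dKO and 35.6 and 28.03 CPM in tKO, whereas NR2F2 and NR2C1 stood at -0.05 and -0.06.

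Of 20 further responsive genes 15 were tested, with log2 fold changes between -0.15 and 0.18 and a median of 0.01. MEIS2, a homeodomain cofactor of HOX proteins, had a mean of 83.9 CPM and a log2 fold change of 0.06. NEDD9, a scaffold protein of cell adhesion, stood at 0.18. With tKO 1 left out 4 of 63 pathway genes were called, against 3.21% of all genes. These were STRA6, ALDH1A2, CYP2S1 and KAT2B, all lower in tKO 2. With tKO 2 left out limma called 0 (1.17% of all genes), with 5 at an unadjusted p-value below 0.05 (10.6% of all genes), and STRA6 stood at 0.61 (adjusted p = 0.194 in limma).

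**Figure D4:**
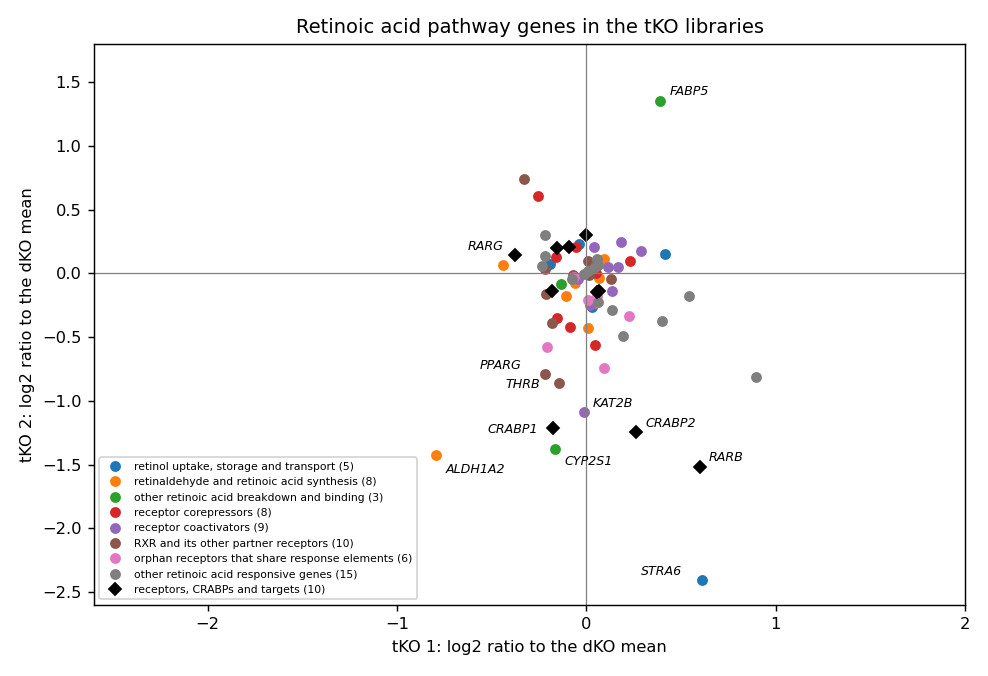
log2 ratio to the dKO mean in tKO 1 (horizontal) and tKO 2 (vertical) of the 64 tested pathway genes, coloured by list, and of the 10 genes described above (black diamonds). Most genes lie near the origin, STRA6, CRABP2 and RARB lie low in tKO 2 and above 0 in tKO 1, and ALDH1A2 is low in both.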

How the data were processed

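The study made 2 independent replicates per genotype from stranded libraries of polyadenylated RNA. Per the labels and methods, the authors trimmed reads with cutadapt (1.12) through Trim Galore (0.4.4), removed ribosomal reads with Bowtie (1.2) and mapped the rest to GRCh37 with STAR (2.5.2b), allowing up to 6 mismatches and 20 loci. The deposited values were raw counts per gene of uniquely mapped reads over exons of GENCODE 19, unstranded and for each strand. Rows that name no gene (ambiguous reads were 2.18% to 2.21% of uniquely mapped reads) were left out. Here the column antisense to the gene was used; the other strand column held 4.01% to 4.24% of stranded gene counts.

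Symbols, positions and canonical transcript lengths came from GENCODE 44 lifted to GRCh37, matched on Ensembl identifiers; 1 marker gene, PECAM1, had no match. Genes above 0.5 CPM in at least 2 libraries were kept. Counts became log2-CPM (TMM, prior count 2) in edgeR (4.0.16), and genotype was fitted in limma (3.58.1, R 4.3.3) with a mean-variance trend and Benjamini-Hochberg adjustment over 15136 genes. The fit was tested on simulated data, in 10 runs with 200 changed genes each. At an adjusted p-value under 0.05 in limma it found 61.3% of 2-fold and 91.4% of 4-fold changes, with 19.4 false genes per run. DESeq2 (1.42.0), the edgeR quasi-likelihood test and other settings were alternatives. P-values set the genotype difference against the spread between the 2 libraries of each group, moderated over all tested genes. Whether that spread covers independent clones is not known, since their number was not given.

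The 10 genes and the lists were chosen with earlier results of these data known. Of the pathway lists, the 2 genes with the highest mean, the largest change above a mean of 1 CPM and the genes in the low stretches were named, and for RARB the 4 nearest tested genes on each side. Some genes that this rule names are not reported here. FABP5 and others outside the rule appear in a plot only.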

Additional observations from a re-analysis of the deposited data

How the results depend on the processing

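The number of the 10 genes called, and that of other pathway genes called, was 0 under the 11 of 15 alternatives that kept all libraries: DESeq2, the edgeR quasi-likelihood test, limma-voom, no trend, RLE size factors, library totals, no filter, CPM above 5 (8 of the 10 tested), unstranded counts, a prior count of 0.25 and the replicate block. Leaving out 1 library gave between 0 and 2 calls among the 10 and between 0 and 4 among the pathway genes, the highest without tKO 1. The replicate number as a block gave 0 and 0 calls, with 13 genes called overall against 2; same-numbered libraries had deviations with a correlation of 0.0581, and the labels do not state a pairing. Of 146 single log2 fold changes, 133 kept their sign and their call, 2 gained a call (CRABP1 and CRABP2 without tKO 1) and 11 changed sign, all when a library was left out. The values over the 4 fits that left out a library each ran from -0.158 to 0.197 for CYP26A1, -0.0946 to 0.205 for DHRS3, -0.00627 to 0.298 for RARA, -0.637 to 0.597 for RARB, -0.382 to 0.143 for RARG, -0.187 to 0.0902 for RXRA, -0.205 to 0.130 for RXRB and -1.25 to 0.259 for CRABP2. RARB passed the filter in 2 of these fits only, without dKO 1 and without tKO 2. Its log2 fold change of -0.460 was -0.185 with unstranded counts and -0.699 with a prior count of 0.25. That of CRABP2, -0.493, was -0.309 with both the edgeR quasi-likelihood test and DESeq2. RARB had 2 to 15 counts per library. The cause of these differences was not tested.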
